A study of Mus musculus with 4 samples.

Results

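The MHC class II presentation genes are described here in mouse cortex late after stroke. Membership was set by name: 10 of the 32285 genes in the deposited gene table, namely Cd74, H2-Aa, H2-Ab1, H2-Eb1, H2-DMa, H2-DMb1, H2-DMb2, H2-Oa, H2-Ob and Ciita. All 10 were found in the table and all 10 had UMIs (unique molecular identifiers, each standing for 1 captured RNA molecule). RNA of single cells was captured in droplets (Chromium 3′ chemistry) from male C57BL/6N mice aged 10 months. Of the 4 libraries, 1 came from sham surgery with an isotype control antibody, called sham isotype here, and 3 came from dMCAO, a surgical stroke of the cortex. The stroke groups received isotype control (stroke isotype), anti-VCAM1 antibody or anti-VLA4 antibody, and antibody was given for 10 weeks in every group, sham included. VCAM1 is an adhesion molecule of the vessel wall and VLA4 is the leukocyte integrin that binds it. Tissue was infarct core with bordering cortex, and the labels use the same tissue term for the sham group. Each library pooled 4 to 5 mice, and cells were stained for CD31 and CD45, which mark endothelium and leukocytes.

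MHC class II molecules are pairs of an alpha and a beta chain that carry peptides from the endosome to the cell surface, where CD4 T cells read them. The invariant chain, product of Cd74, guides new class II molecules to the endosome, the H2-DM heterodimer exchanges the invariant chain remnant for peptide, and the H2-O heterodimer restrains H2-DM. CIITA, the product of Ciita, is the master transactivator of these genes: it binds no DNA itself but is recruited by RFX, CREB and NF-Y factors sitting on the conserved X and Y boxes of class II promoters. Dendritic cells, B cells and border macrophages (those of the meninges and perivascular spaces) are known for high class II, whereas resting microglia, the resident macrophages of the parenchyma, carry little.

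Promoter sequence was taken from RefSeq (GRCm38.p6) for the members found in that table, 7 of 10: H2-Aa, H2-Eb1, H2-DMa, H2-DMb1, H2-DMb2, H2-Oa and H2-Ob. Cd74, H2-Ab1 and Ciita had no entry. The windows below are shown because they hold the letters through which class II genes are known to be controlled together, while the members differed in the cell classes that carried them. Capitals mark letters of 2 motifs searched on both strands, chosen after the promoters had been read: the letters AAC and TGATG with 3 bases of any kind between them, which resemble the X box, and TGATTGG, the inverted CCAAT of the Y box. All windows read 5′ to 3′ along the gene's own strand.

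H2-Eb1, beta chain, chr17:34305768-34305822, plus strand: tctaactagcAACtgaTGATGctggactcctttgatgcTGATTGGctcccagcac

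H2-Aa, alpha chain, chr17:34287857-34287911, minus strand: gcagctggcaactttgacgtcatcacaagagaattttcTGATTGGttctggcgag

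H2-DMb1, beta chain of H2-DM, chr17:34153089-34153144, plus strand: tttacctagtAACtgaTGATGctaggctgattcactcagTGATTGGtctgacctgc

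H2-DMb2, the other H2-DM beta chain, chr17:34145118-34145173, plus strand: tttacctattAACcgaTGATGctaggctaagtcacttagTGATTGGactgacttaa

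H2-Oa, alpha chain of H2-O, chr17:34092296-34092350, plus strand: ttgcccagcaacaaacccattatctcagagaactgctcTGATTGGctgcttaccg

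H2-Ob, beta chain of H2-O, chr17:34238810-34238862, plus strand: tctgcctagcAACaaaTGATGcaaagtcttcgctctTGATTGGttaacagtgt

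The Y letters were found in 6 of the 7 members with a promoter, starting 45 to 92 bases before the RefSeq start, and the X letters in 4 of them. Where both were present, 26 to 29 bases separated their starts. Of 32851 RefSeq promoters of the same 300 bases, 0.615% held the X letters on either strand, 7.82% held the Y letters, and 17 promoters, or 0.0517%, held both. The 17 include the members that held both. Because the letters were chosen after the member promoters had been read, that choice raised the counts among members. Nothing is read from the contrast with all promoters. H2-DMa held neither in its windows, which says nothing about the factors that bind there. In GENCODE M21 (GRCm38) the 8 H2 members lie within 224 kb of chromosome 17, from H2-Oa to H2-Eb1 (chr17:34092340-34316674). Ciita lies at chr16:10480059-10528418 on the plus strand.

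The libraries held 1541 barcodes (sham isotype), 2891 (stroke isotype), 4751 (anti-VCAM1) and 6361 (anti-VLA4), with 10008987 to 34721356 UMIs each. After filters and removal of doublet calls 1516, 2832, 4662 and 6209 cells were kept, at median depths of 4516.5 to 5466 UMIs. The cells were clustered without the members, marker genes named 21 of the 22 clusters, and a class is written with "-like" because it rests on markers alone. Border-macrophage-like cells rested on 4 of 8 markers (Mrc1, Pf4, Ms4a7, F13a1) and dendritic-like cells on 3 of 10. Sham isotype and stroke isotype shared 59 barcodes, 3.83% of the smaller library, against 1 to 8 for every other pair of libraries. In 54 of the 59, the stroke isotype copy had under 10% of the UMIs of the sham copy. Results that rest on these cells are given with and without them. Each group was 1 library: no test between groups was possible, no difference was checked in a replicate, and all intervals are 95% intervals for counting error only. The anti-VCAM1 and anti-VLA4 comparisons share the stroke isotype library.

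The 4 most abundant members, Cd74, H2-Aa, H2-Ab1 and H2-Eb1, are called the classical members, and their summed UMIs are given as CPM, a count scaled to the total UMIs of the same cells. By this measure dendritic-like cells stood highest, with 32291 CPM in sham isotype, 37431 in stroke isotype, 51104 with anti-VCAM1 and 46469 with anti-VLA4. Border-macrophage-like cells followed at 24422, 24790.1, 20886 and 29101 CPM, and B-cell-like cells at 15412, 14585, 11429.6 and 16679 CPM. Microglia-like cells had 103, 139, 94.9 and 171 CPM. As class averages, the order dendritic, border macrophage, B cell, microglia was the same in all 4 libraries. No Poisson intervals of neighbours in that order overlapped within a library. The border-macrophage-like average mixes a low and a high range of cells, described below. Cluster 23, its higher part in finer clustering, had 34040.1 CPM in sham isotype and 38342 in stroke isotype, above the dendritic-like class. With anti-VCAM1 and anti-VLA4 it had 30708.5 and 39732 CPM, below that class. Endothelial-like cells, given here as a class that should carry little class II, had 5.98 to 29.9 CPM. A UMI stands for 1 transcript end whatever the length of the gene, so levels of different members were compared as CPM.

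**Figure D1:**
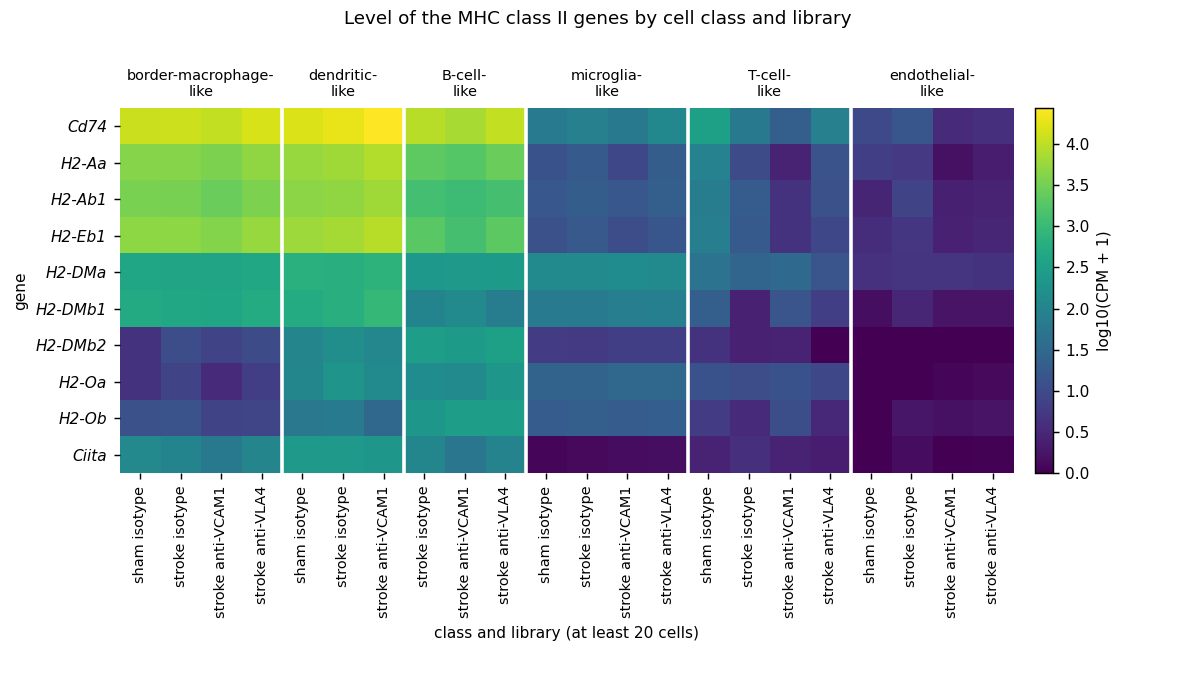
Heat map of the level of each member (vertical axis) in 6 cell classes by library (horizontal axis, combinations with at least 20 cells), coloured by log10 of CPM + 1. Dendritic-like, border-macrophage-like and B-cell-like columns are high for Cd74, H2-Aa, H2-Ab1 and H2-Eb1, and microglia-like columns hold H2-DMa at 130.4 to 143 CPM with Ciita at 0.194 to 0.448.

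Cd74, the invariant chain, was the most abundant member in every named antigen-presenting class. In dendritic-like cells it measured 16023, 19313, 27322 and 24946 CPM in the order sham isotype, stroke isotype, anti-VCAM1, anti-VLA4, an order kept for all lists of 4 values below. Border-macrophage-like cells had 11863, 12327, 10486 and 14849 CPM of Cd74, and B-cell-like cells 9847, 9161, 7165 and 10613. Within each of these classes the libraries differed by less than 2-fold. Cd74 made up 49.7% of the classical UMIs in border-macrophage-like cells (Clopper-Pearson interval 49.4 to 50.1), 51.8% in dendritic-like cells (51.4 to 52.2) and 63.1% in B-cell-like cells (62.3 to 63.9), over all libraries. In the 35 plasma-cell-like cells it was 88.9%. The alpha chain H2-Aa and the beta chains H2-Ab1 and H2-Eb1 were high in the same classes. H2-Aa, for example, had 4206, 4321, 3662 and 4953 CPM in border-macrophage-like cells against 2268, 2130.3, 1819 and 2622 in B-cell-like cells.

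The H2-DM genes had another distribution. H2-DMa, the alpha chain of the peptide exchanger, measured 130.4, 133, 143 and 133 CPM in microglia-like cells. Border-macrophage-like cells had 418, 387, 389 and 432 CPM, and dendritic-like cells 649.8, 611, 725 and 882. The gap between microglia-like cells and these classes was far smaller for H2-DMa than for the classical sum. Over all libraries there were 0.988 classical UMIs per H2-DMa UMI in microglia-like cells, against 61.6 in border-macrophage-like, 58.7 in dendritic-like and 60.7 in B-cell-like cells. The last 3 values, pooled over libraries, lay close together although the classical level of these classes differed. They were further apart in some libraries. With anti-VCAM1, dendritic-like cells had 13890 classical and 197 H2-DMa UMIs, and B-cell-like cells 1659 and 36. With anti-VLA4 these were 8850 and 168, and 3632 and 57, so B-cell-like cells then had the higher ratio.

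With each cell thinned to 1000 UMIs, H2-DMa was found in 10.3%, 12%, 11.1% and 12% of microglia-like cells, against 0.215%, 0.563%, 0.534% and 0.492% of endothelial-like cells. Without thinning H2-DMa was found in 51.9%, 46.8%, 46.5% and 43.6% of microglia-like cells, whose median depths were 7342, 6064, 5309 and 5192 UMIs, and in 1.25% to 1.65% of endothelial-like cells, whose medians were 3722 to 4280.5 UMIs. H2-DMa was thus found in a larger share of microglia-like than of endothelial-like cells in every library, thinned or not. Cd74 in thinned microglia-like cells was found in 3.77%, 3.45%, 3.56% and 3.96%, against 0.43%, 2.25%, 0.194% and 0.454% of endothelial-like cells. The margin for Cd74 was narrow in stroke isotype.

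H2-DMb1, the main H2-DM beta chain, paralleled H2-DMa, with 65.9, 67.4, 77.8 and 81.5 CPM in microglia-like cells and 517, 451, 400.4 and 532 in border-macrophage-like cells. H2-DMb2, a near copy of H2-DMb1, was highest in B-cell-like cells in the 3 libraries other than anti-VLA4, at 338, 297, 262 and 331 CPM. In the anti-VLA4 library dendritic-like cells stood beside them at 347 CPM. H2-DMb2 held 75.6% of all H2-DMb UMIs in B-cell-like cells (interval 71.0 to 79.8), 19.2% in dendritic-like cells (17.3 to 21.3), 6.65% in microglia-like cells (5.79 to 7.59) and 1.62% in border-macrophage-like cells (1.04 to 2.40). Pooled over libraries, these shares were separate between all 4 classes, although reads that the near-identical copies share could have been split or dropped in counting. Within the anti-VCAM1 library the dendritic-like share was 11.0% (7.54 to 15.3), and its interval overlapped that of microglia-like cells at 6.75% (5.15 to 8.66). The dendritic-like share differed between libraries and was 31.7% (25.5 to 38.5) with anti-VLA4. The promoter windows of H2-DMb1 and H2-DMb2 shown above both hold the X and Y letters, 29 bases apart.

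The H2-O genes, whose product restrains H2-DM, were low in border-macrophage-like cells, where the classical members were high. H2-Oa measured 24.9, 24.7, 29.5 and 30.7 CPM in microglia-like cells but 3.53, 7.17, 2.34 and 5.66 in border-macrophage-like cells, from 16 UMIs in all. Microglia-like cells were thus higher than border-macrophage-like cells for H2-Oa in all 4 libraries. Dendritic-like cells had 109, 193, 132 and 179 CPM and B-cell-like cells 127, 141, 131 and 220.4. H2-Ob, the partner beta chain, was highest in B-cell-like cells at 309.9, 218, 303 and 303 CPM, and measured 18.5, 20.7, 18.5 and 20.4 CPM in microglia-like cells against 11.8, 12.7, 7.03 and 7.55 in border-macrophage-like cells, from 33 UMIs in all.

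Ciita, the transactivator, was highest in dendritic-like cells, and its order between border-macrophage-like and B-cell-like cells differed by library, with overlapping intervals. Dendritic-like cells had 237, 251, 221 and 268 CPM, border-macrophage-like cells 120.2, 98.0, 60.9 and 104, and B-cell-like cells 183, 107, 55.1 and 96.4. In microglia-like cells it was found as 1, 3, 4 and 6 UMIs, or 0.194 to 0.448 CPM over 6468 cells. Endothelial-like cells had 0, 1, 0 and 1 Ciita UMIs. These counts are too few to rank the libraries.

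Border-macrophage-like, dendritic-like and B-cell-like cells together held 95.9%, 95.8%, 95.5% and 88.3% of all classical UMIs, from 161, 355, 115 and 148 cells. These were 10.6%, 12.5%, 2.47% and 2.38% of kept cells. Microglia-like cells, which were 45.7%, 52.7%, 39.1% and 39.6% of kept cells, held 1.37%, 1.73%, 3.75% and 7.25% of the classical UMIs. The remainder in anti-VLA4 included a single pericyte-or-mural-like cell with 99.3% of that class's 274 Cd74 UMIs and a single unnamed cell with 96.7% of the 239 Cd74 UMIs of the unnamed cluster.

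Microglia-like cells held far larger shares of H2-DMa, with 47.9%, 50.4%, 75.2% and 76.3% of its UMIs. The class held 52.0%, 55.7%, 41.4% and 40.1% of all UMIs of the libraries, so its H2-DMa share was below its share of all UMIs in sham and stroke isotype and above it in both blockade libraries. H2-DMb1 had 32.3%, 34.2%, 63.5% and 68.7% there, H2-Oa 64.6%, 45.9%, 81.4% and 81.1%, and H2-Ob 60.1%, 49.5%, 72.5% and 72.7%. Ciita UMIs were 47.8%, 53.2%, 60.0% and 37.0% in dendritic-like cells, and under 5% in microglia-like cells in each library.

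**Figure D2:**
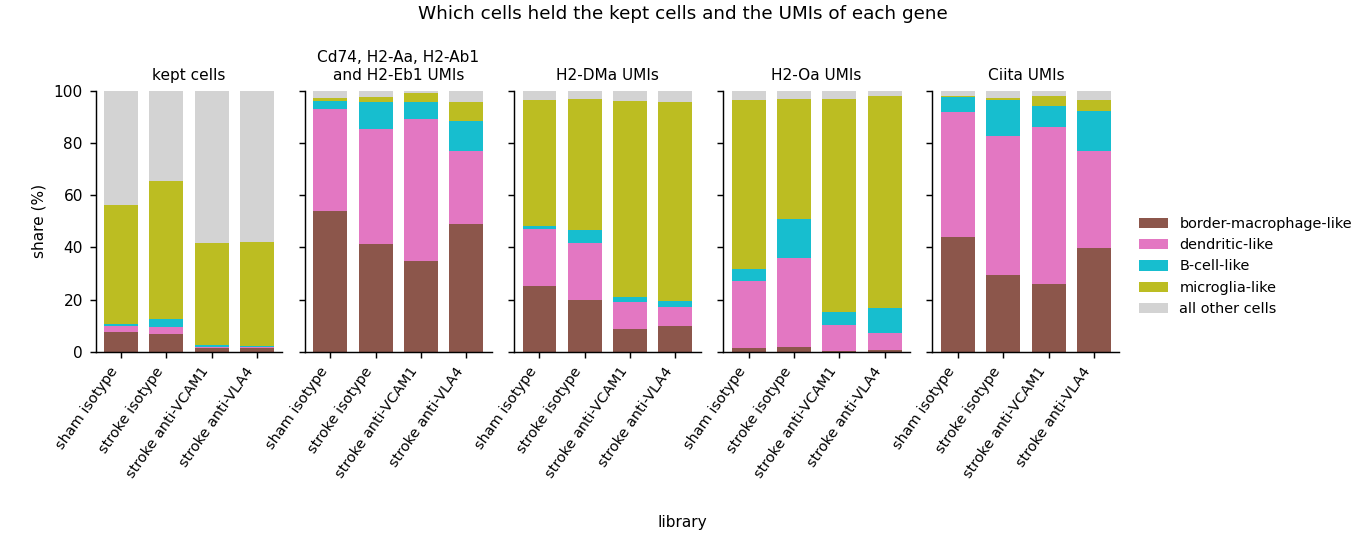
Stacked bars by library (horizontal axis) of the share held by each cell class (percent, vertical axis), first of the kept cells and then of the UMIs of the classical members, H2-DMa, H2-Oa and Ciita. Border-macrophage-like, dendritic-like and B-cell-like cells fill 88.3% to 95.9% of the classical bars, and microglia-like cells fill 47.9% to 76.3% of the H2-DMa bars.

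Over all kept cells the classical level was 3892 CPM in sham isotype (exact Poisson interval 3853 to 3931), and 4472 in stroke isotype (4441 to 4505). The anti-VCAM1 library had 1048 CPM (1036 to 1061) and the anti-VLA4 library 947 (936 to 957). Both blockade libraries were low and the sham and stroke isotype libraries were high. The log2 ratio, with a pseudocount of 1 CPM, was 0.20 for stroke isotype over sham isotype (0.18 to 0.22), -2.09 for anti-VCAM1 over stroke isotype (-2.11 to -2.07) and -2.24 for anti-VLA4 over stroke isotype (-2.26 to -2.22). Counted over the UMIs of the named leukocyte classes only, which leaves out the more numerous endothelial-like cells of the blockade libraries, the ratios were 0.05, -1.32 and -1.45. Without barcodes found in more than 1 library the stroke ratio was 0.54, and those of the blockades were -2.11 and -2.23. Leaving out only the stroke isotype copies of the barcodes shared with sham isotype gave 0.20 for stroke. The stroke ratio thus moved with the sham copies of shared barcodes and with the denominator.

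Of the 10 members, 0 were past 2-fold in the stroke comparison of all kept cells, where 1.86% of all genes were past 2-fold either way. With anti-VCAM1 8 members were 2-fold or more lower, against 4.58% of all genes, and with anti-VLA4 8 were, against 4.73%. The 2 members inside 2-fold were H2-DMa (-0.90) and H2-Oa (-0.95) with anti-VCAM1, and H2-Oa (-0.93) and H2-Ob (-0.98) with anti-VLA4. Ciita had 23.5, 24.8, 4.09 and 4.13 CPM, with log2 ratios of -2.34 and -2.33 for the blockades. Within leukocytes 6 members were 2-fold or more lower with anti-VCAM1 (3.17% of all genes) and 5 with anti-VLA4 (2.92%), and H2-DMa then stood at -0.16 and -0.28. The median over the members was 0.13, -1.95 and -1.87 in the 3 comparisons of all kept cells, beside -0.06, -0.01 and 0.00 over all genes.

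The levels within classes and the numbers of cells could be separated by arithmetic. With the UMI shares of the classes taken from the anti-VCAM1 library and the levels within classes from stroke isotype, the classical level came to 1044 CPM, a log2 ratio of -2.10. With the shares of stroke isotype and the levels of the anti-VCAM1 library it came to 4723 CPM, a ratio of 0.08. For anti-VLA4 the shares alone gave -2.49 and the levels alone 0.26, and for stroke over sham 0.12 and 0.10. The lower classical level of the blockade libraries was thus carried in this arithmetic by class shares. Of kept cells, 7.59%, 6.85%, 1.33% and 1.43% were border-macrophage-like, 2.11%, 2.61%, 0.536% and 0.306% were dendritic-like, and 0.923%, 3.07%, 0.601% and 0.644% were B-cell-like. These shares depend on the staining for CD31 and CD45 and on how cells were named.

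In microglia-like cells the classical level was 103 CPM in sham isotype (94.2 to 112) and 139 in stroke isotype (131 to 147). The anti-VCAM1 library was lower at 94.9 (89.0 to 101) and the anti-VLA4 library highest at 171 (164 to 178). The log2 ratios were 0.43, -0.54 and 0.30 in the order stroke over sham, anti-VCAM1 over stroke isotype and anti-VLA4 over stroke isotype. Cd74 alone gave 0.43 (0.25 to 0.62), -0.48 (-0.64 to -0.34) and 0.43 (0.31 to 0.56), from 63.7, 86.0, 61.3 and 116 CPM. H2-Aa, at 12.2, 17.1, 8.11 and 19.3 CPM, gave 0.45, -0.99 (-1.48 to -0.68) and 0.17. H2-Eb1, at 11.7, 16.0, 10.4 and 14.4 CPM, gave 0.43, -0.58 and -0.14. None of the 9 members with at least 20 UMIs was past 2-fold in any of the 3 comparisons, where 1.37%, 0.620% and 0.587% of all genes were past 2-fold either way. Their medians were 0.16, -0.16 and 0.17, beside -0.03, 0.03 and 0.05 over all genes.

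These microglia-like differences rested on few cells and on how cells were named. No classical UMI was found in 79.1%, 78.9%, 86.0% and 85.9% of microglia-like cells. When cells were named one by one from their markers, the ratios were 0.08, -1.97 and -1.65. That naming also placed 116 of 460 border-macrophage-like, 18 of 150 dendritic-like and 12 of 169 B-cell-like cells in the microglia-like class. The part of these cells in the ratios was not tested. When cells were thinned the anti-VLA4 ratio was -0.0032. In sham isotype a single cell held 43.7% of the class's classical UMIs, and its barcode was shared with stroke isotype. Without shared barcodes in either library the stroke ratio went from 0.43 to 1.11, whereas leaving out only their stroke isotype copies gave 0.32. Leaving out the cell with the most member UMIs in each library gave 1.00, with -0.89 for anti-VCAM1.

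A high microglia-like cell was taken as one with at least 0.2% of its UMIs, and at least 5 UMIs, from the classical members. There were 2 such cells of 693 in sham isotype (0.289%, Clopper-Pearson interval 0.035 to 1.04), and 17 of 1493 in stroke isotype (1.14%, 0.665 to 1.82). The anti-VCAM1 library had 8 of 1821 (0.439%, 0.19 to 0.864) and the anti-VLA4 library 34 of 2461 (1.38%, 0.959 to 1.93). These 61 cells held 49.1%, 61.0%, 47.5% and 69.9% of the class's classical UMIs. Without them the classical level was 52.5 CPM (46.4 to 59.2), 54.6 (49.97 to 59.6), 50.1 (45.8 to 54.6) and 52.4 (48.6 to 56.5). Since the high cells were chosen by their classical UMIs, leaving them out lowers and draws together these levels by construction, and nothing is read from their closeness. When cells were named one by one from their markers, the high cells were 4.28%, 4.87%, 1.27% and 2.32%, and anti-VLA4 was no longer highest. The class then took in border-macrophage-like, dendritic-like and B-cell-like cells, as given above. The cut falls in a range: 4, 7, 13 and 18 cells lay between 0.1% and 0.2%, and 0, 3, 6 and 17 between 0.2% and 0.4%. Without shared barcodes the counts were 1, 10, 8 and 34.

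**Figure D3:**
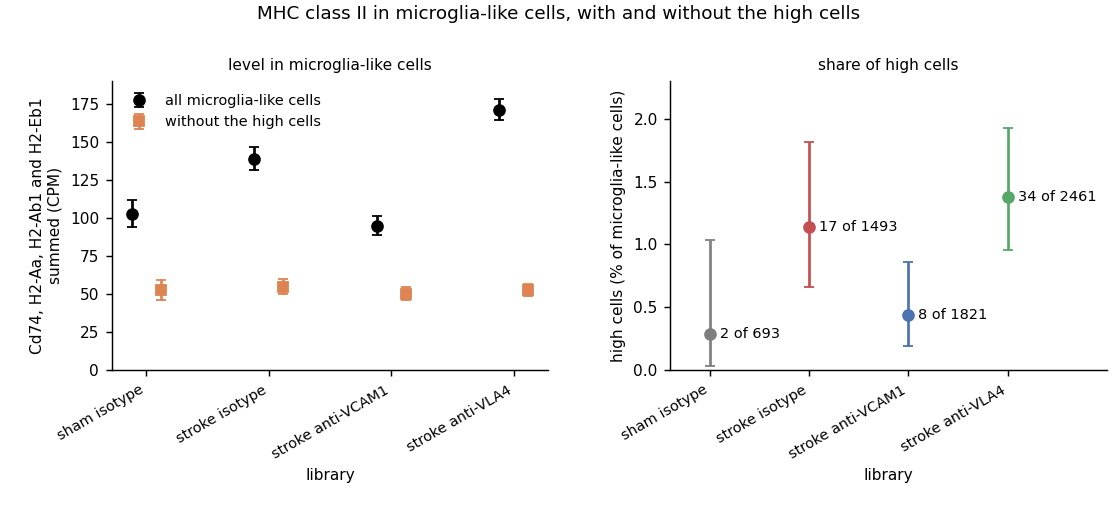
Classical MHC class II in microglia-like cells of each library: the level in CPM with all cells and without the high cells, with exact Poisson intervals, and the percent of cells that were high, with Clopper-Pearson intervals. All cells give 94.9 to 171 CPM, and the levels without the high cells (50.1 to 54.6 CPM) are lower by construction, since the rule used the same UMIs.

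The high cells were checked for microglial, macrophage, dendritic and B cell markers. At least 3 of 8 microglia markers were found in 53 of the 61, or 86.9%, against 97.2% of the other 6407 microglia-like cells. P2ry12, a purinergic receptor of homeostatic microglia, was found in 78.7% of high and 94.0% of other cells, Tmem119 in 60.7% and 80.1%, and Sall1 in 44.3% and 67.9%. Each of these microglia markers was found in a smaller share of the high cells. Some markers of other types were common in microglia-like cells as a whole (Fscn1 in 55.8%, Wdfy4 in 49.5% and Ighm in 41.9% of the others), so the check used the macrophage, dendritic and B cell markers found in under 5% of the others, a choice made after seeing these values.

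At least 1 of these scarce markers was found in 17 of the 61 high cells (27.9%) and in 8.33% of the others, and at least 2 in 7 high cells and in 0.780% of the others. Macrophage markers were found in 12 high cells, dendritic markers in 7 and a B cell marker in 1. Ms4a7, which marks border macrophages, was in 9.84% of high and 0.546% of other cells, and Cd209a, a dendritic cell lectin, in 4.92% and 0.140%. The B cell genes Cd79a, Ms4a1 and Pax5 and the dendritic cell genes Xcr1 and Clec9a had no UMI in any high cell. By library the scarce markers were in 1 of 2, 11 of 17, 1 of 8 and 4 of 34 high cells. The other 44 high cells had none of them and no shared barcode, and 30 of these were in the anti-VLA4 library. Leaving out every microglia-like cell with a scarce marker gave log2 ratios of -0.31 for anti-VCAM1 and 0.97 for anti-VLA4. The part of doublets and free RNA in the high cells was not tested. Of the high cells in stroke isotype, 7 of 17 had a barcode shared with another library, and their median depth of 2737 UMIs was below the 6082 of the other microglia-like cells there.

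Among the members, Cd74 measured 4804 CPM in high cells and 36.9 in other microglia-like cells, and H2-Aa 1107 and 3.22, which restates the rule. H2-DMa, which the rule did not use, measured 262 CPM in high cells (215 to 318) and 134 in the others (130.2 to 138). H2-Oa measured 65.0 (42.4 to 95.2) and 27.7 (26.0 to 29.4), and H2-DMb1 127 (94.9 to 168) and 74.4 (71.7 to 77.2). These 3 members were higher in high cells with separate intervals. So was H2-Ob, at 40.0 (22.8 to 64.9) and 19.5 CPM (18.1 to 21.0), from 16 UMIs in the high cells. H2-DMb2 was lower in high cells, at 2.50 and 5.37 CPM, from 1 UMI there and with overlapping intervals. Ciita was found as 1 UMI in the 61 high cells. The intervals count UMIs, and the cells come from all libraries together. Cd74 was 61.8% of classical UMIs in the high cells (60.1 to 63.5) and 70.5% in the others (68.4 to 72.5), with 4.34 and 11.5 Cd74 UMIs per H2-Aa UMI. In endothelial-like cells Cd74 was 41.5% (35.7 to 47.5) with 2.49 Cd74 UMIs per H2-Aa UMI. The part of free RNA in the UMIs of the other microglia-like cells was not tested.

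Cluster 11 of the microglia-like class, led by Hcar2, Gpr84 and Cst7, held 1, 6, 1 and 24 of the high cells and was 2.60%, 6.63%, 5.71% and 6.54% of the class. Its classical level was 1322, 598, 175 and 1279 CPM, and 102, 203, 168 and 236 CPM without the high cells. Sham isotype rested on 18 cells there, 1 of them the cell with the shared barcode. Cluster 9 had 58.6, 524, 588 and 246 CPM and, without high cells, 58.6, 57.5, 65.2 and 51.8. In cluster 9 H2-DMa was at 176, 199, 253 and 212 CPM, above the 48.0 to 74.9 CPM of clusters 6 and 7, whose median depths of 2709 and 2276.5 UMIs were the lowest of the class. Clusters had no replicate libraries either, so these values describe the 4 libraries.

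In border-macrophage-like cells the classical level differed little between sham and stroke isotype, with a log2 ratio of 0.02 (-0.00 to 0.05). The anti-VCAM1 ratio was -0.25 (-0.28 to -0.21) and the anti-VLA4 ratio 0.23 (0.20 to 0.26). No measured member was past 2-fold (8, 7 and 8 members with at least 20 UMIs), where 4.74%, 7.65% and 9.0% of all genes were past 2-fold either way. Ciita with anti-VCAM1 was at -0.68 (-1.36 to -0.07), from 98.0 and 60.9 CPM, and H2-Ob with anti-VLA4 was also at -0.68, from 16 and 4 UMIs (-2.79 to 0.88). Naming cells one by one kept 190 of the 460 cells in the class and gave -0.97, 0.46 and 0.40. At clustering resolution 0.5, where 149 of 150 dendritic-like cells joined this class, the ratios were 0.16, 0.12 and 0.17. The anti-VCAM1 difference therefore changed sign with the naming.

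Single border-macrophage-like cells fell into 2 ranges. The classical members were at least 0.5% of a cell's UMIs in 63.5%, 61.9%, 58.1% and 58.4% of cells, under 0.05% in 28.7%, 32.0%, 30.6% and 29.2%, and between these limits in 9, 12, 7 and 11 cells. The limits were chosen with the values in view. Few cells lay between, and the split was alike in the 4 libraries. The 281 cells above and the 140 cells below these limits were then compared by markers not used to divide them. Cd163, a haemoglobin scavenger receptor, was found in 6.41% of the cells above and 50% of those below, Lyve1, a hyaluronan receptor of perivascular macrophages, in 1.78% and 40.7%, and F13a1 in 40.2% and 94.3%. Mrc1, the mannose receptor, was in 73.0% and 92.1%. These shares pool the cells of all libraries. Clustering at resolution 2, without the members, also divided the class, and the overlap of its clusters with these ranges was not counted. Cluster 23, led by Ms4a7, Cxcl2 and Pf4, had 34040.1, 38342, 30708.5 and 39732 CPM of classical UMIs, and cluster 29, led by Ccl7, F13a1, Cd163 and Lyve1, had 3024, 1149, 2744 and 7718. Cluster 29 was 33.0%, 36.1%, 40.7% and 46.6% of the cells, with overlapping intervals (24.4 to 42.6 in sham isotype and 35.9 to 57.5 with anti-VLA4).

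**Figure D4:**
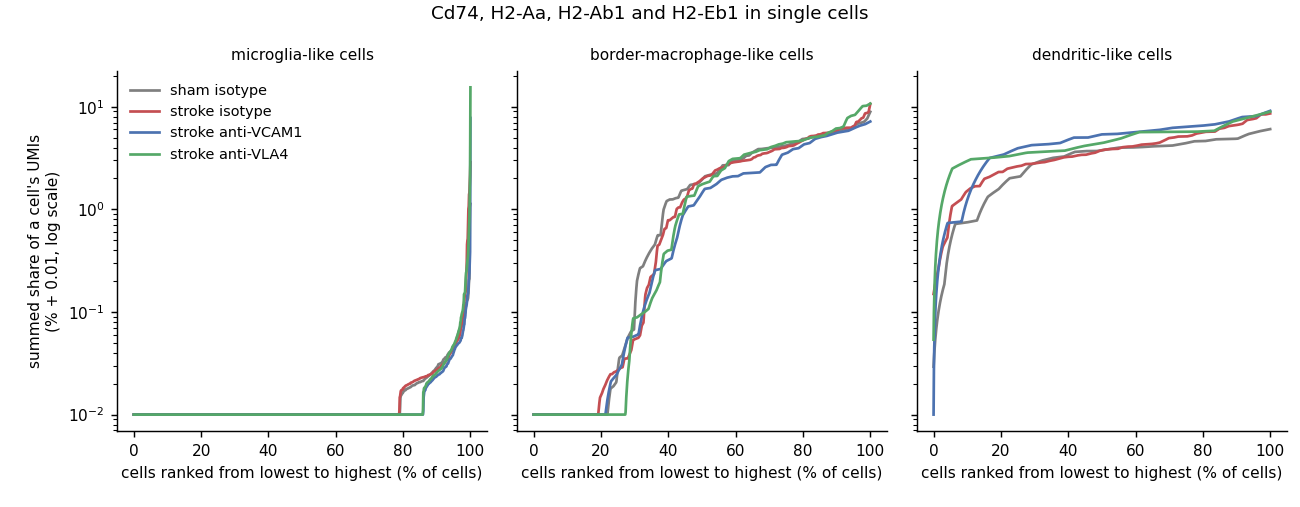
Cells of 3 classes ranked from lowest to highest (percent of cells, horizontal axis) against the share of a cell's UMIs from the classical members (percent + 0.01, vertical log axis), 1 line per library. The microglia-like lines stay at the floor for 78.9% to 86.0% of cells, the border-macrophage-like lines climb steeply between a low and a high range, and most of each dendritic-like line lies in the high range.

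Dendritic-like cells, 32, 74, 25 and 19 by library, had classical log2 ratios above 0 in each comparison. The stroke ratio was 0.21 (0.19 to 0.24), the anti-VCAM1 ratio 0.45 (0.42 to 0.48) and the anti-VLA4 ratio 0.31 (0.28 to 0.35). Cd74 gave 0.27, 0.50 and 0.37 and H2-Eb1 0.17, 0.43 and 0.20. Past 2-fold were 0 members in the stroke comparison (10.2% of all genes either way), H2-Ob with anti-VCAM1 at -1.13 (22.6%) and H2-DMb2 with anti-VLA4 at 1.14 (20.7%). H2-DMb2 measured 105, 157, 110.4 and 347 CPM, the last from 66 UMIs. H2-Ob with anti-VCAM1 was 8 UMIs. A share of members past 2-fold of 1 in 10 was below the share over all genes in both blockades. Without shared barcodes sham isotype kept 20 of its 32 dendritic-like cells and the stroke ratio was 0.10. B-cell-like cells gave -0.08 (-0.17 to 0.01), -0.35 (-0.43 to -0.27) and 0.19 (0.14 to 0.25), from 14, 87, 28 and 40 cells. No member was past 2-fold there, where 29.5%, 15.8% and 16.0% of all genes were.

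**Figure D5:**
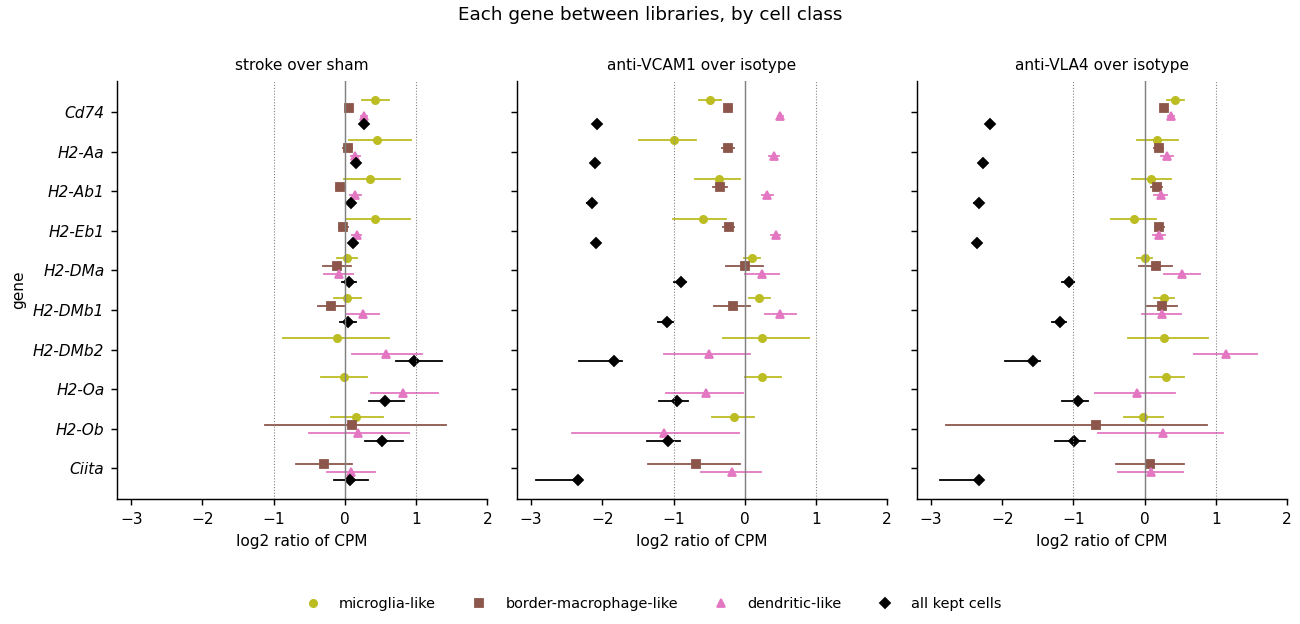
Log2 ratio of CPM (horizontal axis) of each member (vertical axis) in microglia-like, border-macrophage-like, dendritic-like and all kept cells, 1 panel per comparison, with bars for 95% counting intervals and dotted lines at 2-fold, for members with at least 20 UMIs over the 2 libraries. In microglia-like cells H2-DMa lies at 0.03, 0.10 and 0.00 while Cd74 lies at 0.43, -0.48 and 0.43.

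T-cell-like and endothelial-like cells, which are not known as class II presenters, carried few classical UMIs in most libraries. T-cell-like cells had 571, 105, 29.9 and 115 CPM of classical UMIs, but in sham isotype 3 of 74 cells held 95.7% of the class's Cd74 UMIs. The ratio of -2.43 for stroke over sham (-2.75 to -2.15) rested on those cells. Endothelial-like cells had 18.8, 29.9, 5.98 and 7.94 CPM, with ratios of 0.65, -2.15 and -1.79. Stroke isotype was highest and both blockade libraries were lowest in this level, as they were in the share of dendritic-like cells given above, and the part of free RNA in it was not tested. Monocyte-or-neutrophil-like cells carried more, with 4480, 5839, 770 and 287 CPM, from 17, 21, 23 and 7 cells. In sham and stroke isotype this was far above the 103 and 139 CPM of microglia-like cells.

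The pathway around the members was read from 35 partner genes in 7 lists, of which 30 had at least 20 UMIs in microglia-like cells for each comparison. None was past 2-fold there, where 1.37%, 0.620% and 0.587% of all genes were past 2-fold either way. The transcription list (RFX subunits, NF-Y subunits, Creb1, Irf4, Irf8, Spi1) had medians of -0.14, 0.03 and -0.03. Rfx5, an RFX subunit that binds the X box, measured 7.91 to 10.7 CPM in microglia-like and 1.89 to 11.7 in border-macrophage-like cells, and Irf8, a myeloid transcription factor, 330.0 to 349 and 164 to 239. Transcripts of the DNA-binding partners were therefore present in microglia-like cells where Ciita was near 0. Ifng, the cytokine known to induce Ciita, had UMIs in T-cell-like cells at 96.8 to 114 CPM, and none in microglia-like, border-macrophage-like or dendritic-like cells. Its receptor chain Ifngr1 measured 477 to 504 CPM in microglia-like cells.

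In the interferon gamma list, Irf1 in microglia-like cells measured 110.0, 102, 73.0 and 62.7 CPM (log2 -0.11, -0.47 and -0.69). In border-macrophage-like cells with anti-VCAM1, Irf1 was lower at -1.17 (117 and 51.5 CPM), while Ciita there was at -0.68. With anti-VLA4 Irf1 was higher in border-macrophage-like cells, at 0.68, whereas their Ciita level was close to that of stroke isotype, as given above. A link of Irf1 with Ciita was not tested. Border-macrophage-like cells had 28, 28 and 27 measured partners. Past 2-fold were 0 in the stroke comparison, 4 with anti-VCAM1 and 1 with anti-VLA4 (Lag3 lower, 2 UMIs). Over all genes 4.74%, 7.65% and 9.0% were past 2-fold either way. Of the 4 with anti-VCAM1, 2 in the interferon gamma list were lower, Irf1 among them, and Irf4 and Rfxap were higher from 9 and 16 UMIs.

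Peptide supply genes differed in where they were highest. Ctss, the protease that trims the invariant chain, measured 3822 to 4603 CPM in microglia-like cells against 2630 to 2916 in border-macrophage-like and 1355 to 1524 in dendritic-like cells. Ifi30, the lysosomal thiol reductase, was lower in microglia-like than in border-macrophage-like or dendritic-like cells. Its levels in these classes were 132 to 153, 177 to 337 and 519 to 1299 CPM, in that order. Ctsb, a lysosomal protease, measured 885 CPM in sham isotype and 1232 in stroke isotype microglia-like cells (0.48). Cd83, whose product stabilises surface class II and CD86, measured 1299, 1844, 1367 and 1014 CPM in microglia-like cells, with ratios of 0.51, -0.43 and -0.86. Stroke isotype was highest for Cd83 and anti-VLA4 lowest. Among costimulators, Cd40 was at 1.12 to 1.55 CPM in microglia-like and 16.4 to 30.6 in border-macrophage-like cells, and Cd86 at 453 to 575 and 714 to 1094.5. H2-Eb2, another class II beta chain, had 27.6 to 73.5 CPM in B-cell-like cells and 1 UMI in microglia-like cells. H2-Ea was not analysed here.

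Likeness to the classical sum was measured as Pearson's r of log2(CPM + 1) over 30 pairs of class and library with at least 20 cells, among 8008 genes. The pairs share libraries and classes, so r is a description. The genes outside the members with the highest r were Cybb (0.90), Scimp (0.87), Gm20513 (0.87), Milr1 (0.86), Cyp4f18 (0.85), Gm6377 (0.84), Ms4a6c (0.84), Plbd1 (0.84), Rftn1 (0.83) and Serp1 (0.83). Cybb, the catalytic subunit of the phagocyte NADPH oxidase, measured 325 to 500.4 CPM in dendritic-like, 653 to 864 in border-macrophage-like and 1.94 to 14.3 in microglia-like cells. Gm20513 is annotated antisense to H2-Eb1, overlapping it by 2204 bases at chr17:34293073-34308070 on the minus strand. Whether counting used strand is not given in the sources used here, so it is not known how reads within that overlap were assigned. Among the members, Ciita ranked 5 of the 8008 genes (0.91), H2-DMa 11, H2-DMb1 14, H2-DMb2 50, H2-Ob 124 and H2-Oa 389.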

How the data were processed

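The deposited matrices hold raw UMI counts per gene and barcode. Per the file headers they were written by Cell Ranger 7.0.1, while the submitters' processing notes list Cell Ranger 6.0.0, Seurat 4.3.0.1 and the builds mm10 and GRCh38, so the run behind the counts is not settled. Columns of other samples: 0. Computed here, with Python 3.11.15, scanpy 1.11.5, scipy 1.17.1 and leidenalg 0.10.2: cells with at least 500 UMIs, 200 genes and at most 10% mitochondrial UMIs were kept, and Scrublet calls (expected rate 0.05) removed 9, 24, 58 and 124 doublets.

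Cells of all libraries were clustered on 2000 variable genes, 30 principal components, 15 neighbours and Leiden resolution 1, leaving out 166 genes (members, partners, mitochondrial, ribosomal and haemoglobin genes). A cluster was named if at least 3 markers of a type were found in at least 25% of its cells and reached a log2 fold of 1 over other cells, unless 5 markers of another type were found or another type led its top 10 genes. Ranking types by the mean difference in marker detection was settled after clusters were seen. Cluster 5 (1046 cells; 72, 86, 366 and 522 by library) stayed unnamed. Cluster 0 was the largest microglia-like cluster in sham isotype, stroke isotype and with anti-VCAM1, and cluster 2 with anti-VLA4.

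UMIs were summed per class and library and given as CPM with exact Poisson intervals. Intervals are conditional binomial for log2 ratios, with no pseudocount, and Clopper-Pearson for shares. On simulated counts for the stroke comparison of microglia-like cells, 95.8% of the ratio intervals of 10484 genes held the true value. That check bears on counting error only, and not on spread between cells, mice or libraries. Members, lists, markers and the rule for the high cells were chosen with earlier results of these data known. Named genes were the 10 members, the partner lists, and the 10 genes most like the classical sum among those with at least 200 UMIs and 50 CPM in any pair. Some marker and partner genes are not reported here. Alternatives are in the closing section.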

Additional observations from a re-analysis of the deposited data

Results flagged for a closer look

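The classical level (Cd74, H2-Aa, H2-Ab1 and H2-Eb1 summed) moved in opposite directions in several pairs of cell classes of the same comparison. Given here are 3 such pairs, each with microglia-like cells. Other pairs also differed in sign, such as dendritic-like (0.45) and border-macrophage-like cells (-0.25) with anti-VCAM1. None of these differences between classes was tested, since each group was 1 library. For stroke isotype over sham isotype the log2 ratio was -2.43 in T-cell-like cells and 0.43 in microglia-like cells, and in sham isotype 3 of 74 T-cell-like cells held 95.7% of the Cd74 UMIs of that class. For anti-VCAM1 over stroke isotype it was 0.45 in dendritic-like cells and -0.54 in microglia-like cells, from 25 and 74 dendritic-like cells. For anti-VLA4 over stroke isotype it was -1.79 in endothelial-like cells and 0.30 in microglia-like cells, with 110 and 73 classical UMIs in the endothelial-like class.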

How the results depend on the processing

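The 16 values were the classical log2 ratio in all kept, microglia-like and border-macrophage-like cells, the share of high microglia-like cells, and the median over the members. They were recomputed under 133 combinations of value and setting. Of these, 78 stayed within the interval of the value, 51 left it, and 4 turned sign against a reported interval that excluded 0. This was the counting interval, except for the median over the members. There it ran from the lowest to the highest member ratio, so staying within it says little. Of the 51, 3 also changed sign, all for stroke in border-macrophage-like cells, where the reported interval held 0. Settings on shared barcodes, scarce markers and the leukocyte denominator were chosen after seeing the data. Where 3 values follow each other, they are stroke over sham, anti-VCAM1 and anti-VLA4 over stroke isotype.

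With cells named one by one from their markers, the ratios were 0.083, -1.97 and -1.65 in microglia-like cells (0.43, -0.54 and 0.30 as reported) and -0.97, 0.46 and 0.40 in border-macrophage-like cells (0.02, -0.25 and 0.23). That naming placed 116 border-macrophage-like, 18 dendritic-like and 12 B-cell-like cells in the microglia-like class. At resolution 0.5 the ratios were 1.03, -0.33 and 0.51 in microglia-like and 0.16, 0.12 and 0.17 in border-macrophage-like cells. At resolution 2 the anti-VLA4 ratio of border-macrophage-like cells was 0.15. With doublets kept, microglia-like cells gave 0.27 and -1.06 for stroke and anti-VCAM1, and anti-VLA4 gave 0.15 in border-macrophage-like and -2.26 in all kept cells. Thinned cells gave 0.25, -2.25 and -2.17 over all kept cells, -0.0032 for anti-VLA4 in microglia-like cells, and -0.022 for stroke and 0.15 for anti-VLA4 in border-macrophage-like cells. Median-of-ratios size factors gave 0.27 for stroke in all kept cells and 0.27 for anti-VLA4 in border-macrophage-like cells.

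Without the cell with the most member UMIs in each library, all kept cells gave -2.17 and -2.27 for the blockades, microglia-like cells 1.00 for stroke and -0.89 for anti-VCAM1, and border-macrophage-like cells -0.28 for anti-VCAM1. Without shared barcodes, all kept cells gave 0.54 and -2.11 for stroke and anti-VCAM1, microglia-like cells 1.11 for stroke and 0.41 for anti-VLA4 (0.41 also without the stroke isotype copies alone), and border-macrophage-like cells -0.17, -0.21 and 0.27. Over leukocytes only the ratios were 0.046, -1.32 and -1.45. Without microglia-like cells with 2 or more markers of another type the anti-VLA4 ratio was 0.91, and without those with any scarce marker anti-VCAM1 gave -0.31 and anti-VLA4 0.97. The causes of these moves were not tested.

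The share of high microglia-like cells, with cells named one by one, was 4.28%, 4.87%, 1.27% and 2.32% in sham isotype, stroke isotype, anti-VCAM1 and anti-VLA4, against 0.289%, 1.14%, 0.439% and 1.38%. With a limit of 0.1% of UMIs it was 1.15% with anti-VCAM1 and 2.11% with anti-VLA4, and with 0.5% it was 0.0549% and 0.528%. Thinned cells gave 1.30% in sham isotype and 1.17% with anti-VCAM1, and stroke isotype without scarce markers gave 0.449%. No paired analysis was possible because each group was 1 library and no test was run. Depth limits Ciita in microglia-like cells (14 UMIs) and H2-Oa in border-macrophage-like cells (16 UMIs).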

Other observations

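The 35 plasma-cell-like cells, found in 3 of the 4 libraries (4 in sham isotype, 25 in stroke isotype and 6 with anti-VLA4), had classical levels of 4703, 2632 and 4516 CPM, nearly all of it Cd74 at 4098, 2328 and 4103 CPM. They had 0 UMIs of Ciita, H2-DMb2 and H2-Oa, whereas B-cell-like cells had 55.1 to 183 CPM of Ciita. In the anti-VLA4 library 1 microglia-like cell had 15.4% of its 655 UMIs from the classical members, the highest share among microglia-like cells, against 1.12%, 2.86% and 7.75% for the highest cell in sham isotype, stroke isotype and anti-VCAM1.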
